A study of Homo sapiens with 8 samples.

Results

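The clustered protocadherin genes lie side by side in 3 clusters, alpha, beta and gamma, on human chromosome 5. They were taken as every gene of the count table whose symbol is PCDHA, PCDHAC, PCDHB, PCDHGA, PCDHGB or PCDHGC followed by digits, which gave 55 of 25369 genes: 15 in the alpha cluster, 18 in the beta cluster and 22 in the gamma cluster. On hg19, the build of the deposited coordinates, the alpha genes begin with PCDHA1 at 140165721, the beta genes run from PCDHB1 at 140430961 to the end of PCDHB15 at 140627801, and the gamma genes run from PCDHGA1 at 140710252 to 140892546. The symbols PCDHB17 and PCDHB18, which newer naming treats as pseudogenes, meet the rule and were kept. PCDHB19P and PCDHGB8P do not meet it and had 1 and 2 counts in all.

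Total RNA of MDA-MB-231 cells, an established human breast cancer line without estrogen receptor, progesterone receptor or HER2 amplification, was sequenced in 8 libraries from 10000000 cells per sample. There were 2 libraries each of unmodified cells (WT), of cells with SUN2 knocked out (SUN2KO), of cells with a truncated SUN2 that lacks residues 569 to 585 (Kashlid) and of cells with one that lacks residues 1 to 139 (LBD). SUN2 is a protein of the inner nuclear membrane that joins the lamina inside the nucleus to nesprins and the cytoskeleton outside. By the series' design, Kashlid was made to sever SUN2 from Nesprin-2G and LBD to sever it from the lamins, so that the loss of the protein can be set beside the loss of either link. Whether the truncated forms were made in SUN2KO or in WT cells, how they were introduced, and whether a line is 1 clone is not in the labels. Nor do the labels say that the replicates of a group were separate cultures, so the p-values rest on a spread between libraries that may be purely technical.

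Protocadherins of the clusters are cell-surface adhesion proteins that bind their own kind on a facing cell, and neurons use different combinations of them to tell their own branches from those of other cells. Each beta gene is a single large exon, whereas in the alpha and gamma clusters each gene's own first exon is spliced to constant exons that the whole cluster shares. Nearly every variable exon has its own promoter, most carry a conserved motif with the core CGCT, and the choice among promoters depends on DNA methylation, on CTCF and cohesin and on distant enhancers. Outside the nervous system most of these genes are silent, and in many tumours they are silenced by methylation.

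The promoter stretches are shown for the 5 genes that reached the level needed for a test and for PCDHGB3, to show the CGCT element that most promoters of the clusters carry. Each is the 150 bases just upstream of the annotated start on the plus strand of chromosome 5, from RefSeq on GRCh38.p14, 5′ to 3′, with the letters CGCT in capitals. PCDHB2 is chr5:141094465-141094614, PCDHB13 is chr5:141213769-141213918, PCDHB14 is chr5:141223193-141223342 and PCDHB15 is chr5:141245245-141245394. PCDHGA1 is chr5:141330364-141330513 and PCDHGB3 is chr5:141370092-141370241.
PCDHB2: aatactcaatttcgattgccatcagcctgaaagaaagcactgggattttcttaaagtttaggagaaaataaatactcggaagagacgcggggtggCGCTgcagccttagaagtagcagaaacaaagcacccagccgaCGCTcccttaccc
PCDHB13: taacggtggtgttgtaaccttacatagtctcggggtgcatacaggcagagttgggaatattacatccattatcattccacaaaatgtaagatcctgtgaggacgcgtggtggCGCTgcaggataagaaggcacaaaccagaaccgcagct
PCDHB14: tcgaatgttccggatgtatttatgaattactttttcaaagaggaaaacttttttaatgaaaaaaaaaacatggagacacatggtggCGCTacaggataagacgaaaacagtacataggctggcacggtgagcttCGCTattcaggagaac
PCDHB15: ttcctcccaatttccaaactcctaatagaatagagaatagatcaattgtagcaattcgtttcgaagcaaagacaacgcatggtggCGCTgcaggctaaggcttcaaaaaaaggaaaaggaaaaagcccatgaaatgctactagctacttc
PCDHGA1: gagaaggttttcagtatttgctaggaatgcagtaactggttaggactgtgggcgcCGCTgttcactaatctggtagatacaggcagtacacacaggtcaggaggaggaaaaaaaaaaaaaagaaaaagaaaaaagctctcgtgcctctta
PCDHGB3: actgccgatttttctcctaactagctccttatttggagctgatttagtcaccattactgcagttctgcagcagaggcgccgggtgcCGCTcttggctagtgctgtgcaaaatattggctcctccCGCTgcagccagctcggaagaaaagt
The 4 beta stretches share the longer run TGGCGCT, in which their CGCT sits at 55, 38, 64 and 65 bases before the start of PCDHB2, PCDHB13, PCDHB14 and PCDHB15. The PCDHGA1 and PCDHGB3 stretches hold CGCT, at 95 and at 64 and 26 bases before the start, but not the longer run.

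Both runs of letters were then counted on either strand in windows of 300 bases around the annotated starts. Of the 55 genes, 47 had at least 1 such window, 52 windows in all. CGCT was in 51 of these 52 windows (98.08%), against 70.01% of all 35116 promoter windows, whose median GC content was higher (58.67% against 40.67%). TGGCGCT, which contains CGCT and was chosen after the beta stretches had been seen, was in 13 of 14 beta windows (92.86%, all but PCDHB1), in 0 of 13 alpha windows and in 5 of 25 gamma windows. It was in 4.075% of all promoter windows. A match of letters is a description of the window and was not tied to any measured level.

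Few of these genes were expressed in MDA-MB-231 cells. Counts in the 8 libraries together came to 1553 for all 55 genes, of 139980648 counts, with 8 in the alpha cluster, 975 in the beta cluster and 570 in the gamma cluster. There were 0 counts in any library for 18 genes: 11 alpha, 4 beta and 3 gamma. Of the other genes, 21 had 10 or more counts in total and 6 had 40 or more. These 6 were PCDHB2 with 436, PCDHGA1 with 264, PCDHB13 with 172, PCDHB14 with 168, PCDHB15 with 57 and PCDHGB2 with 43. Just under 40 stood PCDHGB3 with 39, PCDHGA6 with 37 and PCDHB9 with 36. The plot of raw counts by gene and library shows these few genes as bright columns in otherwise dark clusters.

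**Figure D1:**
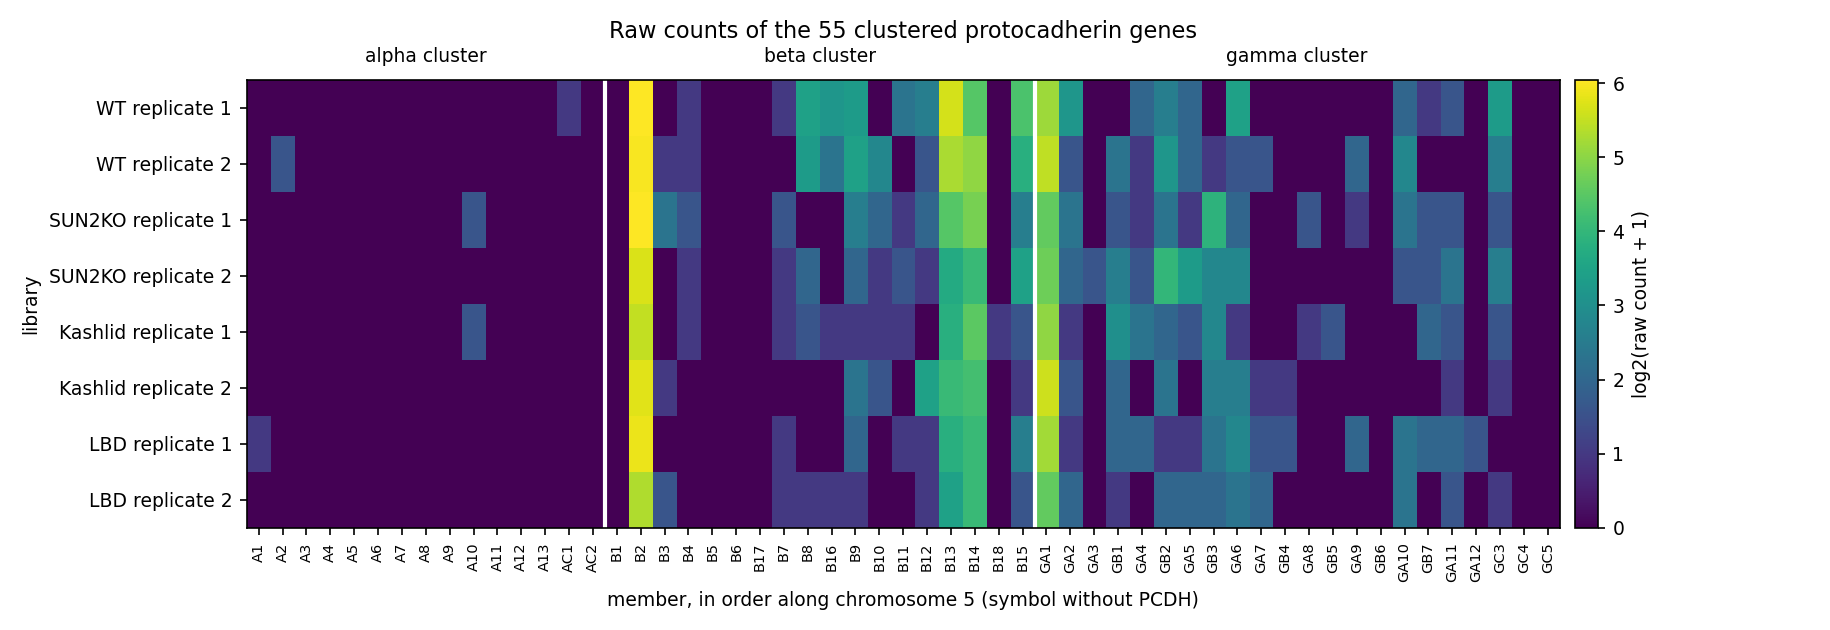
Raw counts of the 55 clustered protocadherin genes, in order along chromosome 5 (x axis), in the 8 libraries (y axis); colour is log2 of the raw count plus 1, and white lines part the 3 clusters. PCDHB2, PCDHB13, PCDHB14 and PCDHGA1 are the bright columns, and 11 of the 15 alpha genes have 0 counts in every library.

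The libraries held 16570099 to 18814795 counts, and 1 CPM (the level after scaling each library to a common size with edgeR's TMM factors) was 16.7 to 18.6 counts. SUN2 itself stood at 83.7 and 81.9 CPM (WT), 25.7 and 30.3 (SUN2KO), 37.2 and 35.4 (Kashlid) and 32.5 and 34.6 (LBD). SUN2KO kept 33.8% of the WT level, and every library of the altered lines lay below both WT libraries. Both SUN2KO libraries also lay below those of Kashlid and LBD, by a smaller margin that was not tested. Of the markers of the line, the 8 genes that should be present summed to 2010 to 2791 CPM in every library, lowest in SUN2KO, and the 6 that should be absent or low to 52.4 to 69.5 CPM, most of it from ERBB2. A list of 12 neuronal markers, most of whose level is TUBB3, summed to 67.0 to 67.5 CPM in WT, 41.5 to 44.8 in SUN2KO, 40.7 to 44.9 in Kashlid and 47.1 to 50.1 in LBD. STMN2, ELAVL4 and NEUROD1 of that list were at 0 in all libraries. A list of 7 genes typical of HEK293 cells, a line the labels also mention, summed to 21.6 to 25.2 CPM in WT and 28.3 to 33.1 elsewhere, and 4 fibroblast markers, of which PDGFRA was at 0, to 112 to 139 CPM in all libraries. The neuronal sum is lower outside WT, as the beta genes below are, through TUBB3 (mean of 49.96 CPM in WT and 28.7 to 34.3 elsewhere) and SNAP25 (13.0 and 4.39 to 8.76), whereas MAP2 (1.375 and 2.239 to 2.548) and RBFOX3 (0.725 and 1.51 to 2.09) are higher. The HEK293 sum is higher mostly through HOXB9 (13.9 and 20.9 to 26.0), whereas TUBB2B of that list is lower (9.07 and 4.69 to 5.34). At low levels LIN28B (0 and 0.496 to 0.754) and LHX1 (0.322 and 1.08 to 1.62) of that list are also higher in every altered line. NEFL, NEFM and PAX2 had 5, 3 and 1 counts in total. The part of either sum in the levels below was not tested.

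PCDHB2 was the member with the most counts, and its level in the altered lines was at most a little below WT. Its raw counts were 64 and 62 (WT), 65 and 51 (SUN2KO), 44 and 54 (Kashlid) and 57 and 39 (LBD). As levels these were 3.66 ± 0.200 CPM for WT (SD, n = 2), against 3.13 ± 0.549 (SUN2KO), 2.86 ± 0.441 (Kashlid) and 2.81 ± 0.683 (LBD). All 6 libraries of the altered lines lay below both WT libraries, the nearest at 3.517 against 3.522 CPM. The log2 fold changes against WT were -0.23 ± 0.25 (SE), -0.36 ± 0.26 and -0.38 ± 0.26 for SUN2KO, Kashlid and LBD, none past the threshold (adjusted p = 0.523, 0.278 and 0.271, quasi-likelihood test of edgeR with Benjamini-Hochberg adjustment over 14016 genes).

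PCDHB13, another adhesion protein of the beta cluster, fell in all 3 altered lines. It had 49 and 38 counts (WT), 21 and 12 (SUN2KO), 13 and 16 (Kashlid) and 13 and 10 (LBD). The lowest WT library (2.16 CPM) was above the highest of the other 6 (1.14 CPM). PCDHB13 was 2.83-fold lower in SUN2KO (log2 fold change -1.50 ± 0.38, adjusted p = 0.00356), 2.98-fold lower in Kashlid (-1.58 ± 0.39, adjusted p = 0.00222) and 3.72-fold lower in LBD (-1.89 ± 0.40, adjusted p = 0.000754). In the authors' deposited tables its log2 fold changes are -1.51, -1.58 and -1.91. The SUN2KO call was lost without SUN2KO replicate 2 (adjusted p = 0.0693) and without WT replicate 1 (0.0593).

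PCDHB15, at the far end of the beta cluster, had the largest fitted decrease of any member that was tested. Its counts were 19 and 13 (WT), 5 and 10 (SUN2KO), 2 and 1 (Kashlid) and 5 and 2 (LBD). Every library of the altered lines was below both WT libraries. The Kashlid libraries were the lowest in CPM, but Kashlid replicate 1 (0.116 CPM) and LBD replicate 2 (0.120 CPM) both had 2 counts. With 3 counts in Kashlid against 32 in WT, the ratio of summed counts was 10.6-fold (95% counting interval 3.33 to 54.3). PCDHB15 passed the filter on low counts through its WT libraries, where it is highest, so the filter itself favoured a decrease. The log2 fold change was -3.31 ± 0.79 in Kashlid (adjusted p = 0.00183) and -2.14 ± 0.67 in LBD (adjusted p = 0.0142). In SUN2KO it was -1.19 ± 0.57 and missed the threshold (adjusted p = 0.111). The LBD call was lost in DESeq2 (adjusted p = 0.0928), without LBD replicate 2 (0.129) and without WT replicate 1 (0.136), and without LBD replicate 1 its log2 fold change was -2.88.

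PCDHB14 lies between PCDHB13 and PCDHB15 on the chromosome and did not pass the test in any comparison. Its counts were 21 and 32 (WT), 27 and 16 (SUN2KO), 22 and 18 (Kashlid) and 16 and 16 (LBD). SUN2KO and Kashlid overlapped WT, and both LBD libraries were below it. The log2 fold changes were -0.40 ± 0.39, -0.40 ± 0.39 and -0.70 ± 0.41 (adjusted p = 0.448, 0.435 and 0.183).

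**Figure D2:**
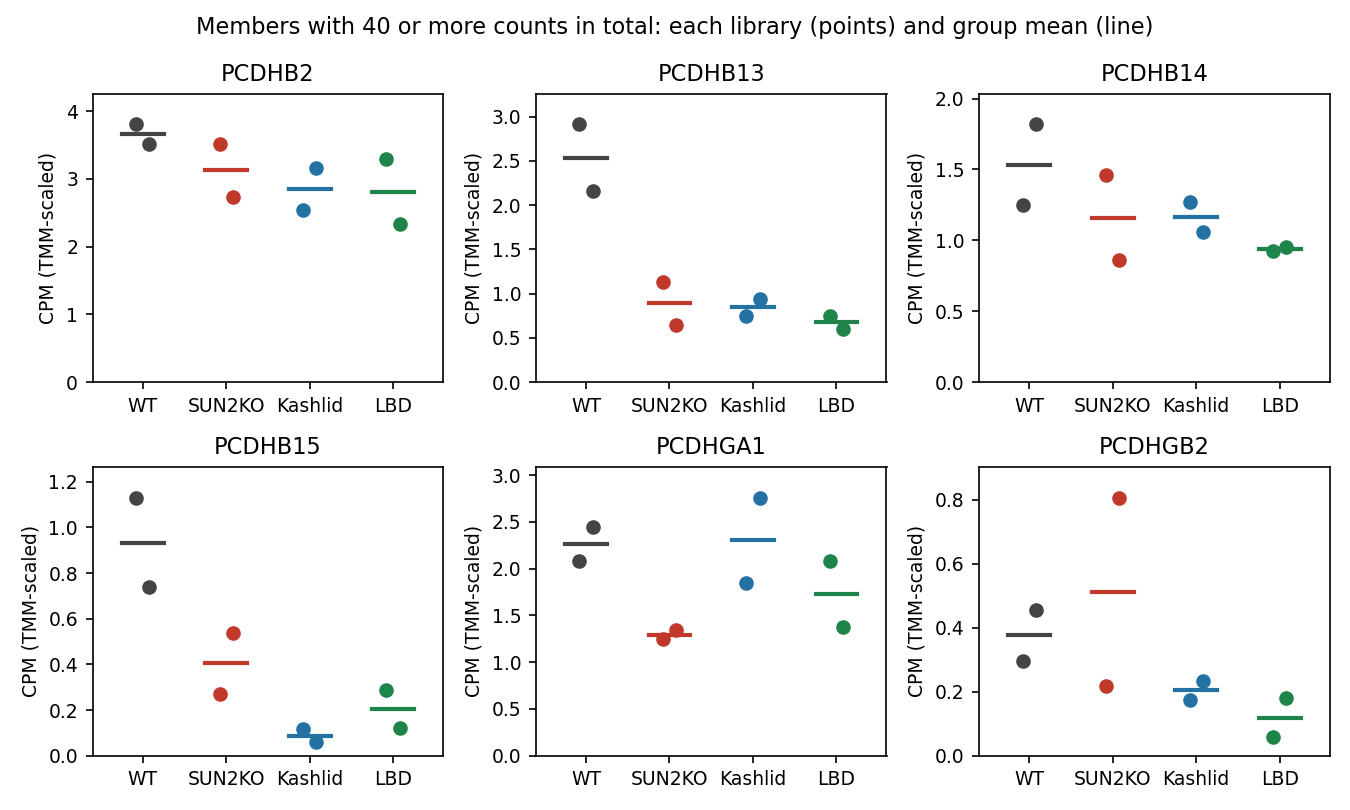
Level in CPM (y axis, from 0) of the 6 members with 40 or more counts in total, in each library (points) and as the group mean (line), for WT, SUN2KO, Kashlid and LBD (x axis). PCDHB13 and PCDHB15 show all 6 altered libraries below both WT libraries, whereas PCDHGA1 overlaps WT in Kashlid and LBD and PCDHGB2 spreads widely in SUN2KO.

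Among beta genes too low for the main test, PCDHB8 and PCDHB16 had most of their counts in WT. PCDHB8 had 10 and 9 counts (WT), 0 and 3 (SUN2KO), 2 and 0 (Kashlid) and 0 and 1 (LBD). Against the summed counts of the other lines WT was 6.82-fold (counting interval 2.01 to 36.0), 9.48-fold (2.29 to 83.9) and 18.8-fold (2.98 to 780) higher. PCDHB16 had 8 and 4 counts (WT), 0 and 0 (SUN2KO), 1 and 0 (Kashlid) and 0 and 1 (LBD). In both genes every library of the altered lines was below both WT libraries, and both reached 10 counts in total through WT. With 12 counts against 0, PCDHB16 has no finite ratio in SUN2KO, and its counting interval put WT at least 2.99-fold higher. Taking 3 counts over the group as the limit that 0 allows gave 4.31-fold, a value that leaves out the counting error of the 12. WT was 11.97-fold above Kashlid (1.77 to 512) and 11.86-fold above LBD (1.75 to 507). Without a filter on low counts, edgeR's quasi-likelihood test gave PCDHB8 adjusted p = 0.089, 0.0527 and 0.0267 in SUN2KO, Kashlid and LBD, and PCDHB16 0.0424, 0.132 and 0.146. Counting intervals hold counting error alone and no spread between libraries.

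The next beta genes in abundance were less clear. PCDHB9 had 9 and 10 counts (WT), 5 and 3 (SUN2KO), 1 and 4 (Kashlid) and 3 and 1 (LBD), with no overlap between WT and any other line. The WT sum was 2.56-fold (1.07 to 6.76), 3.79-fold (1.37 to 13.0) and 4.69-fold (1.56 to 19.0) above the 3 lines. PCDHB12 had 5 and 2 counts in WT and 10 in Kashlid replicate 2 but 0 in Kashlid replicate 1, so that 1 library made its Kashlid level. The other beta genes with any counts held 0 to 6 in each library.

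PCDHGA1, the first gene of the gamma cluster, was the gamma member with the most counts and passed the test in no line. It had 35 and 43 counts (WT), 23 and 25 (SUN2KO), 32 and 47 (Kashlid) and 36 and 23 (LBD). Both SUN2KO libraries (1.24 and 1.34 CPM) were below WT (2.08 and 2.44 CPM), whereas Kashlid (1.85 and 2.76 CPM) and LBD (2.08 and 1.38 CPM) spread across or up to the WT values. The log2 fold changes were -0.80 ± 0.34 in SUN2KO, 0.02 ± 0.32 in Kashlid and -0.38 ± 0.33 in LBD (adjusted p = 0.0714, 0.96 and 0.385). The SUN2KO value passed when the SUN2KO and WT libraries were fitted alone (adjusted p = 0.0461), and the Kashlid value was -0.29 without Kashlid replicate 2 and -0.09 without WT replicate 1. The authors' deposited table gives -0.80 with an adjusted p of 0.274 for SUN2KO.

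PCDHGB3 was the member that stood higher outside WT. It had 0 and 1 counts (WT), 14 and 6 (SUN2KO), 6 and 5 (Kashlid) and 4 and 3 (LBD). Every altered library was above both WT libraries, and SUN2KO replicate 1 was the highest. The ratio to WT was 18.56-fold (2.97 to 769) in SUN2KO, 11.03-fold (1.60 to 475) in Kashlid and 7.08-fold (0.910 to 319) in LBD, all resting on 1 count in WT. PCDHGB3 did not reach the level needed for the test. Without a filter on low counts edgeR's quasi-likelihood test gave an adjusted p of 0.012 in SUN2KO, 0.0724 in Kashlid and 0.234 in LBD, and DESeq2 gave 0.0622 in SUN2KO and 0.131 in Kashlid.

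PCDHGC3, one of the last genes of the gamma cluster, had lower values outside WT but too few counts for the main test. It had 9 and 5 counts (WT), 2 and 5 (SUN2KO), 2 and 1 (Kashlid) and 0 and 1 (LBD). The SUN2KO library with 5 counts was still below the WT library with 5 once depth was taken into account. The WT sum was 2.15-fold (0.814 to 6.31) above SUN2KO, 4.66-fold (1.30 to 25.3) above Kashlid and 13.8-fold (2.10 to 585) above LBD. Without a filter on low counts edgeR's quasi-likelihood test gave adjusted p = 0.559, 0.209 and 0.0683 in SUN2KO, Kashlid and LBD. None of these passed the threshold. PCDHGC3 was chosen for naming after its values were seen.

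PCDHGB2, the only other gamma gene with 40 or more counts, had 5 and 8 (WT), 4 and 15 (SUN2KO), 3 and 4 (Kashlid) and 1 and 3 (LBD). Its SUN2KO libraries lay on either side of WT, and the Kashlid and LBD libraries were below it. PCDHGA6 reached 10 counts in WT replicate 1 but 2 in WT replicate 2, with 1 to 6 in the other libraries, and overlapped throughout. The other gamma genes with any counts held 0 to 9 in each library.

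The alpha cluster was close to silent in every line. Its 8 counts came from 4 genes: PCDHA2 with 2 in a WT library, PCDHA10 with 2 in a SUN2KO and 2 in a Kashlid library, PCDHAC1 with 1 in WT and PCDHA1 with 1 in LBD. By group the alpha cluster held 3 counts (WT), 2 (SUN2KO), 2 (Kashlid) and 1 (LBD). No difference between lines could be detected at this depth.

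**Figure D3:**
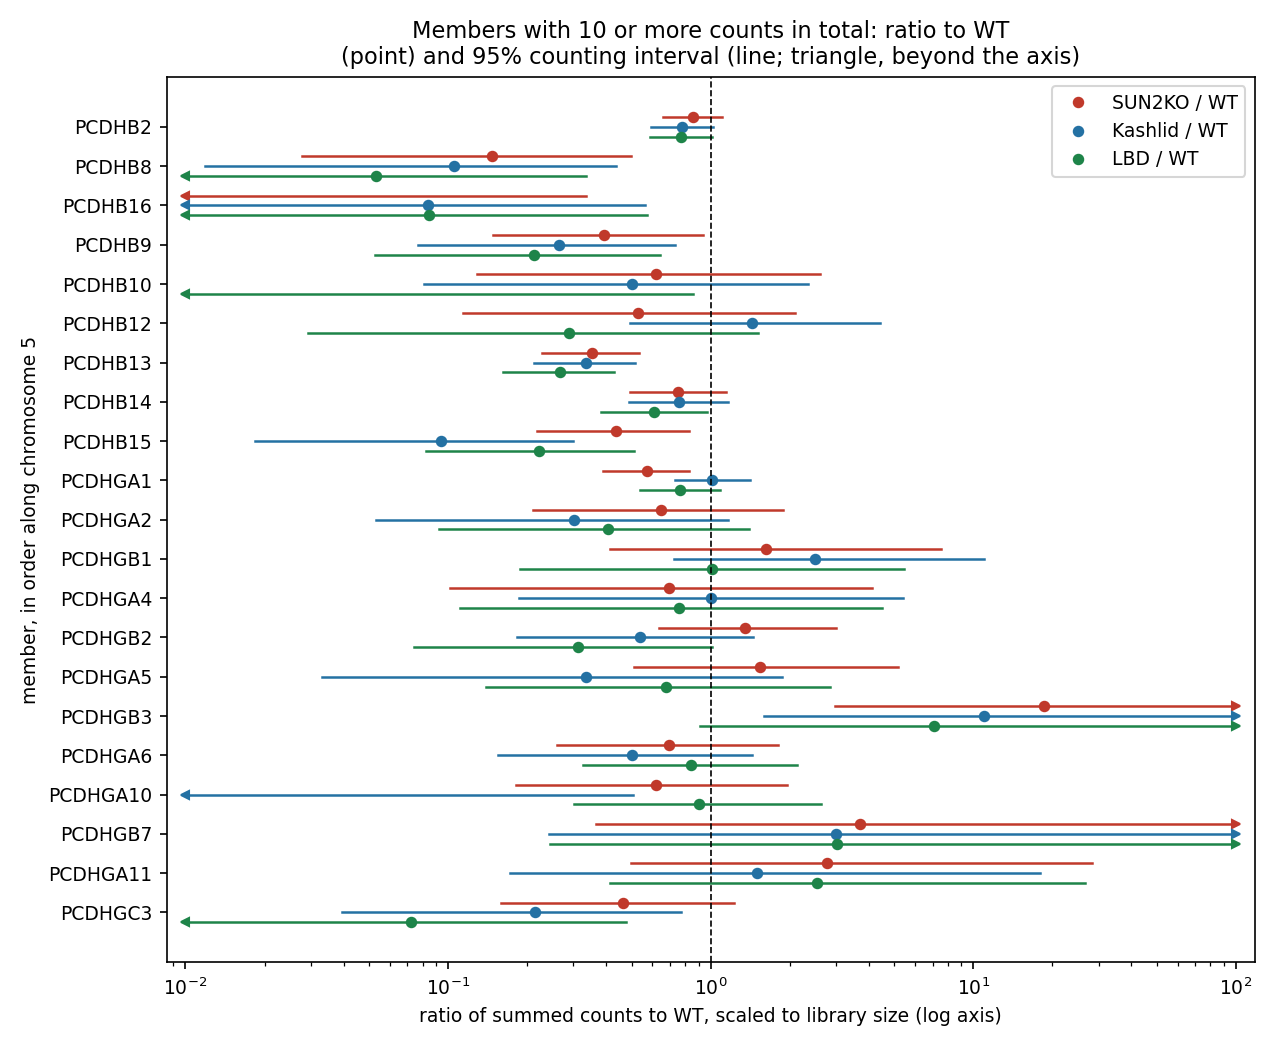
Ratio of summed counts to WT, scaled to library size (x axis, log scale), with its 95% counting interval (line) for the 21 members with 10 or more counts in total, in order along chromosome 5 (y axis); a triangle marks an interval that runs beyond the axis, and a line with no point a group at 0 counts. PCDHB8, PCDHB9, PCDHB13 and PCDHB15 lie left of 1 in all 3 lines with intervals that stay there, and PCDHGB3 lies right of 1 (18.56, 11.03 and 7.08).

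The members were also read gene by gene against WT, by whether the libraries of a line and of WT overlapped. In SUN2KO, 6 of the 9 beta genes with 10 or more counts had both libraries below both WT libraries and 0 had both above. Among the 4910 genes with 10 to 500 counts in total, 25.4% were lower without overlap and 22.4% higher. In Kashlid it was 6 of 9 beta genes lower and 0 higher, against 22.7% and 27.2% of such genes. In LBD it was 8 of 9 lower and 0 higher, against 21.1% and 26.2%. PCDHB8, PCDHB10 and PCDHB16 reached 10 counts only with their WT libraries included. PCDHB8 and PCDHB16 are among the lower genes in each line, a direction that the minimum of 10 counts partly fixes, so the counts of beta genes are a description and support nothing. The comparisons share the WT libraries and are therefore not independent of each other.

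The gamma cluster had 12 genes with 10 or more counts. In SUN2KO 2 were lower without overlap (PCDHGA1 and PCDHGC3) and 2 higher (PCDHGB3 and PCDHGB7), in Kashlid 4 were lower and 1 higher, and in LBD 2 were lower and 2 higher, beside the same shares of all such genes. PCDHGB3, higher in each line, reached 10 counts through the altered lines, so these counts too are a description.

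Of the 55 genes, 5 passed the filter on low counts and were tested: PCDHB2, PCDHB13, PCDHB14, PCDHB15 and PCDHGA1. In SUN2KO, 1 of the 5 fell (PCDHB13) and 0 rose, where 19.1% of all tested genes fell and 17.5% rose. In Kashlid 2 of 5 fell (PCDHB13 and PCDHB15) and 0 rose, against 22.7% and 21.7% of all tested genes. In LBD PCDHB13 and PCDHB15 fell and 0 rose, against 21.0% and 19.0%. A count of 1 or 2 in 5 is near these shares and is not a result about the clusters. PCDHB15 passed the filter through its WT libraries, where it is highest. The median log2 fold changes of the 5 were -0.80, -0.40 and -0.70, beside 0.00, 0.01 and 0.00 over all tested genes.

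Summed over its 18 genes, the beta cluster was lower in all 3 altered lines. The sums were 191 and 178 counts (WT), 138 and 101 (SUN2KO), 90 and 106 (Kashlid) and 97 and 74 (LBD). In CPM these were 10.7 ± 0.878 for WT (SD, n = 2), against 6.45 ± 1.44 (SUN2KO), 5.71 ± 0.717 (Kashlid) and 5.02 ± 0.839 (LBD), or 60.1%, 53.2% and 46.7% of WT. The lowest WT library (10.1 CPM) was above the highest of the others (7.47 CPM). PCDHB2 holds the most counts and had the smallest changes of the tested beta genes, so that leaving it out enlarges the decrease. Without PCDHB2 the sums were 7.07 ± 0.679 CPM for WT, against 3.32 ± 0.894 (SUN2KO), 2.85 ± 0.276 (Kashlid) and 2.20 ± 0.156 (LBD). These were 46.9%, 40.4% and 31.2% of WT. The 14 beta genes under the filter on low counts came to 71 counts (WT), 32 (SUN2KO), 26 (Kashlid) and 13 (LBD). In bulk RNA a smaller number of cells that express a gene cannot be told apart from less RNA in each cell.

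The sums of the gamma cluster lay nearer to WT, a difference from the beta cluster that was not tested. They were 79 and 80 counts (WT), 65 and 86 (SUN2KO), 66 and 70 (Kashlid) and 74 and 50 (LBD). These were 4.62 ± 0.107 CPM for WT, against 4.07 ± 0.780 (SUN2KO), 3.96 ± 0.205 (Kashlid) and 3.63 ± 0.913 (LBD). One SUN2KO library reached the WT range, and both libraries of Kashlid and of LBD were below it. Without PCDHGA1, the other 21 gamma genes held 81 counts (WT), 103 (SUN2KO), 57 (Kashlid) and 65 (LBD). Sums over members carry no test here, because the members were chosen with results of these data known.

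**Figure D4:**
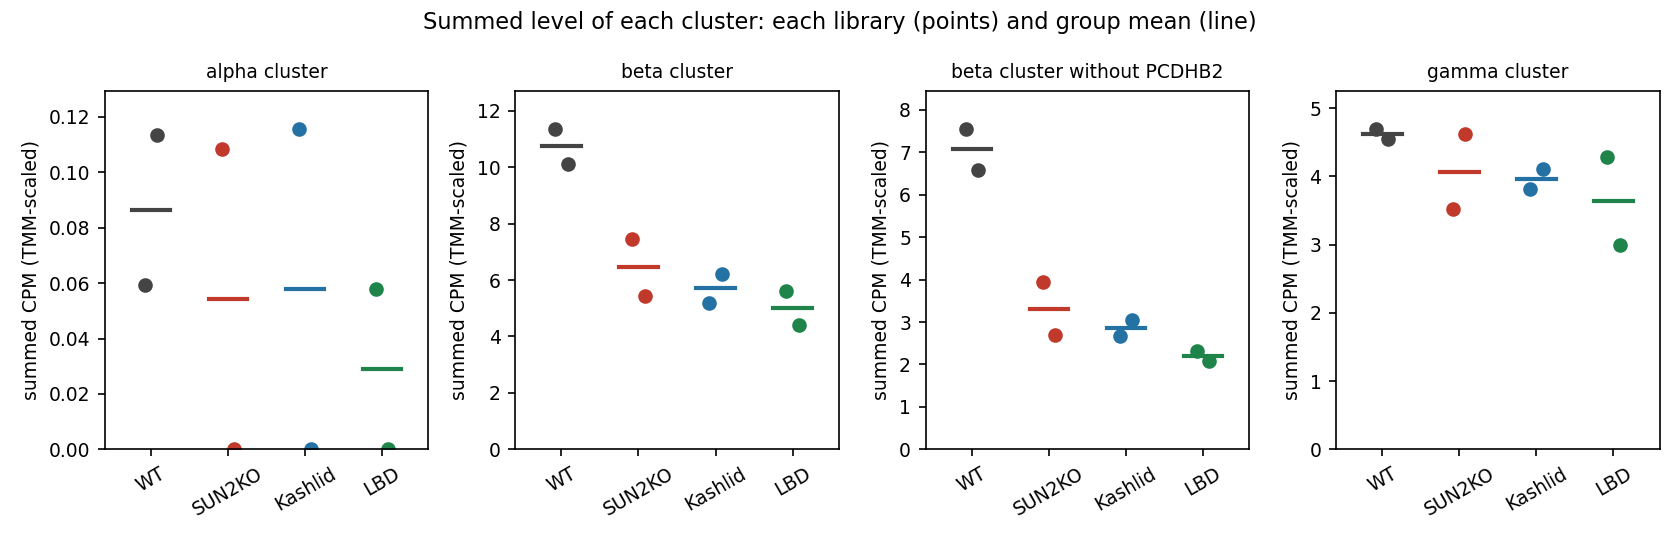
Summed level in CPM (y axis, from 0) of the alpha cluster, the beta cluster, the beta cluster without PCDHB2 and the gamma cluster, in each library (points) and as the group mean (line), for WT, SUN2KO, Kashlid and LBD (x axis). In the beta cluster the WT libraries (11.4 and 10.1) stand above all others (4.42 to 7.47), and in the gamma cluster 1 SUN2KO library (4.62) lies between the WT libraries.

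Among the 3 altered lines, none of the 5 tested genes passed the test in any of the 3 comparisons. In Kashlid against SUN2KO, where 18.0% of all genes were called, 2 had an unadjusted p under 0.05 in edgeR's quasi-likelihood test and 0 passed in DESeq2. These were PCDHB15 (-2.12 ± 0.92, adjusted p = 0.12) and PCDHGA1 (0.83 ± 0.34, adjusted p = 0.101). In LBD against SUN2KO (13.5% of genes called) and in LBD against Kashlid (2.91% called), 0 genes of the 5 had an unadjusted p under 0.05, and 0 passed in DESeq2. For PCDHB13 the differences between lines were -0.07 ± 0.45, -0.39 ± 0.47 and -0.32 ± 0.48 for Kashlid against SUN2KO, LBD against SUN2KO and LBD against Kashlid. For PCDHB15 the error was wide, with 1.17 ± 1.07 for LBD against Kashlid. The beta cluster's sum in LBD was 0.780 of that in SUN2KO (counting interval 0.637 to 0.953), and their libraries overlapped.

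Levels can be compared between genes only per length. Divided by the bases of exon that belong to a gene alone in GENCODE release 29 on GRCh38, the WT level was 0.922 and 0.854 CPM per kilobase for PCDHB2, 0.511 and 0.600 for PCDHGA1, and 0.576 and 0.427 for PCDHB13. PCDHB14 stood at 0.259 and 0.377, PCDHB15 at 0.281 and 0.184 and PCDHGB2 at 0.115 and 0.176. PCDHB2 was above the rest in both libraries, whereas PCDHGA1 and PCDHB13 overlapped, as did PCDHB14 and PCDHB15. In LBD the order was different below PCDHB2 (0.799 and 0.565): PCDHGA1 had 0.512 and 0.338 CPM per kilobase, PCDHB14 0.192 and 0.198, and PCDHB13 0.149 and 0.118. PCDHB13 thus stood above PCDHB14 in both WT libraries and below it in both LBD libraries. The reads were counted on hg19 with an annotation that is not given. In the deposited hg19 coordinates PCDHB2, PCDHB13, PCDHB14 and PCDHB15 span fewer bases than the lengths used here. The values per kilobase and the order of genes may therefore depend on the lengths chosen.

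Members resemble each other in sequence, and how reads that fit several of them were assigned is not given in the sources used here. In the same gene models, a median of 6.04% of the runs of 100 bases in a beta transcript also occurred in another transcript of the clusters. The share was 25.7% in PCDHB8, which has 534 such runs in common with PCDHB13, and 15.1% in PCDHB13, 11.3% in PCDHB2, 5.48% in PCDHB15 and 4.52% in PCDHB14. The values of PCDHB8 and PCDHB13 may therefore share reads. In the alpha and gamma clusters the medians were 45.6% and 43.1%, since their members share constant exons.

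Protocadherins outside the clusters are related adhesion proteins encoded at other places, and 12 of them were looked up. Those with 0 to 8 counts in total were PCDH8, PCDH10, PCDH11X, PCDH17, PCDH18, PCDH19 and PCDH20, and the other 5 were tested. In SUN2KO 4 of them rose and 1 fell, where 17.5% and 19.1% of all tested genes did. In Kashlid 2 rose and 1 fell (21.7% and 22.7% of all), and in LBD 3 rose and 1 fell (19.0% and 21.0% of all). PCDH7, the most abundant, fell in all 3 lines, from 1190 and 1282 counts in WT to 572 and 523 (SUN2KO), 839 and 811 (Kashlid) and 823 and 806 (LBD). No library of an altered line reached WT, and the log2 fold changes were -1.28 ± 0.07, -0.58 ± 0.07 and -0.58 ± 0.07 (adjusted p = 4.89e-11, 1.12e-06 and 1.32e-06).

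PCDH1 and PCDH12 lie within 1 Mb of the gamma cluster on chromosome 5 and were higher outside WT. PCDH1 had 22 and 17 counts (WT), 127 and 98 (SUN2KO), 29 and 28 (Kashlid) and 54 and 56 (LBD). It rose by 2.41 ± 0.28 on the log2 scale in SUN2KO (adjusted p = 7.95e-07) and by 1.51 ± 0.30 in LBD (adjusted p = 0.000405), and its Kashlid value of 0.55 ± 0.33 missed the threshold (adjusted p = 0.193). PCDH12, an endothelial protocadherin, had 11 and 5 counts (WT), 36 and 21 (SUN2KO), 41 and 31 (Kashlid) and 43 and 39 (LBD), all above WT. Its log2 fold changes were 1.71 ± 0.47, 2.15 ± 0.45 and 2.35 ± 0.44 (adjusted p = 0.00656, 0.000538 and 0.000216). The authors' deposited DESeq2 values for PCDH12 pass for Kashlid (adjusted p = 0.00993) and LBD (0.00232) but not for SUN2KO (0.0755). The SUN2KO call for PCDH12 was lost without SUN2KO replicate 1 (adjusted p = 0.111) and without WT replicate 2 (0.105), and without WT replicate 1 the 3 values were 2.41, 2.85 and 3.05.

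PCDH9 rose in SUN2KO and passed the test in neither Kashlid nor LBD, with 126 and 140 counts (WT), 229 and 210 (SUN2KO), 117 and 116 (Kashlid) and 153 and 147 (LBD). Its log2 fold change was 0.62 ± 0.14 in SUN2KO (adjusted p = 0.0019), -0.19 ± 0.15 in Kashlid (0.343) and 0.19 ± 0.15 in LBD (0.333). PCDH15, a component of the tip links of hair cells, had 0 and 3 counts (WT), 14 and 19 (SUN2KO), 9 and 10 (Kashlid) and 22 and 4 (LBD). The ratio to WT was 10.2-fold (counting interval 3.20 to 52.0), 6.35-fold (1.87 to 33.5) and 8.77-fold (2.69 to 45.3). By edgeR's quasi-likelihood test the adjusted p was 0.00802, 0.0442 and 0.0148. PCDH15 passed the filter on low counts through the altered lines, where it is highest, so the filter itself favoured an increase. When each line was fitted with WT alone, PCDH15 was tested for SUN2KO only. The authors' deposited DESeq2 values pass for SUN2KO (adjusted p = 0.0316) but for neither Kashlid (0.172) nor LBD (0.0888). The log2 fold changes of PCDH15, 3.25, 2.57 and 3.03, became 2.34, 1.66 and 2.11 without WT replicate 1, and the LBD value became 1.39 without LBD replicate 1 and 3.77 without LBD replicate 2. Without WT replicate 2 the WT library that remains is at 0 and gives no fold. The PCDH15 call was lost without WT replicate 1 in all 3 lines (adjusted p = 0.0926, 0.259 and 0.135), without SUN2KO replicate 2 (0.0635), without Kashlid replicate 1 or 2 (0.0701 and 0.0987), without LBD replicate 1 (0.457), and for Kashlid in DESeq2 (0.073).

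**Figure D5:**
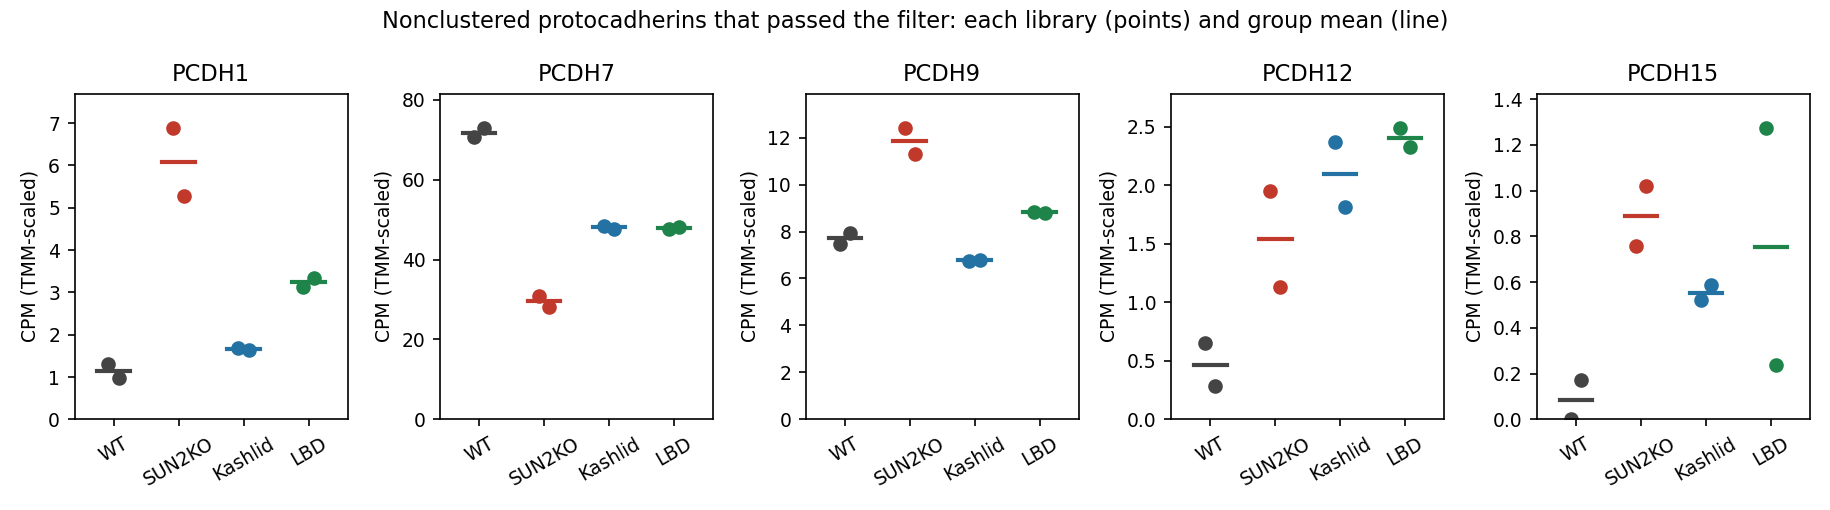
Level in CPM (y axis, from 0) of the 5 protocadherins outside the clusters that passed the filter on low counts, in each library (points) and as the group mean (line), for WT, SUN2KO, Kashlid and LBD (x axis). PCDH7 is highest in WT and lowest in SUN2KO, and PCDH1 and PCDH9 are highest in SUN2KO.

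CTCF and cohesin bring the promoters of the clusters to their enhancers. For this list and those that follow, the shares and medians of all tested genes given above are the measure. CTCF itself did not pass the test in any line, with log2 fold changes of 0.11 ± 0.06, -0.03 ± 0.06 and 0.00 ± 0.06 (adjusted p = 0.148, 0.7 and 0.997). Of the 15 genes of this list that were tested, 4 rose and 2 fell in SUN2KO, 3 rose and 3 fell in Kashlid, and 4 rose and 4 fell in LBD, with medians of 0.11, 0.04 and -0.01. SMC3, a core cohesin subunit, rose by 0.43 ± 0.05, 0.52 ± 0.05 and 0.39 ± 0.05, and RAD21, the subunit that closes the ring, fell by 0.38 ± 0.04, 0.54 ± 0.04 and 0.53 ± 0.04 on the log2 scale. ESCO2, an acetyltransferase of cohesin, fell by 0.50 ± 0.09 in Kashlid and 0.49 ± 0.09 in LBD.

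The next list joins genes that silence the clusters or act on their DNA methylation, and also holds the TET enzymes, which remove that methylation. Of 19 tested, 7 rose and 1 fell in SUN2KO, 7 rose and 2 fell in Kashlid, and 5 rose and 3 fell in LBD, with medians of 0.08, 0.02 and 0.04. TET3 is among the genes that rose in every line and TET2 among those that fell in LBD. DNMT3A, which methylates DNA anew, rose by 0.55 ± 0.10, 0.64 ± 0.10 and 0.63 ± 0.10 (adjusted p = 0.000298, 3.94e-05 and 6.08e-05). LRIF1, a partner of SMCHD1, fell by 0.48 ± 0.08, 0.41 ± 0.08 and 0.32 ± 0.08. SMCHD1 itself, a repressor of the protocadherin clusters, had log2 fold changes of -0.06 ± 0.06, 0.00 ± 0.06 and -0.10 ± 0.06, and missed the threshold in all 3 (adjusted p = 0.467, 0.96 and 0.159).

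Inside the cell, some clustered protocadherins act through kinases and the WAVE complex of actin regulators and are cut by ADAM10 and gamma-secretase. Of 18 such genes tested, 6 rose and 4 fell in SUN2KO, 4 rose and 4 fell in Kashlid, and 4 rose and 5 fell in LBD, with medians of 0.03, 0.02 and 0.04. FYN, a Src-family kinase, rose from 35 and 23 counts in WT to 95 and 121 (SUN2KO), 149 and 113 (Kashlid) and 104 and 115 (LBD), with log2 fold changes of 1.78 ± 0.25, 2.17 ± 0.25 and 1.93 ± 0.25. CYFIP2, a WAVE complex subunit, rose by 1.77 ± 0.38, 1.58 ± 0.39 and 1.59 ± 0.39. PTK2, the focal adhesion kinase that some clustered protocadherins bind and inhibit, fell by 0.37 ± 0.06, 0.35 ± 0.06 and 0.30 ± 0.06.

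Genes around the clusters had median changes close to 0. Of 48 other genes that start within 1 Mb of the outermost members, 32 were tested, and 7 rose and 4 fell in SUN2KO, 6 rose and 4 fell in Kashlid, and 5 rose and 4 fell in LBD. Their median log2 fold changes were 0.06, 0.05 and 0.07. TAF7, a subunit of the general transcription factor TFIID, lies between the beta and gamma clusters and had 2577 to 3277 counts in every library. It rose in SUN2KO by 0.18 ± 0.05 (adjusted p = 0.00839) and was at -0.01 ± 0.05 in Kashlid and 0.01 ± 0.05 in LBD (adjusted p = 0.849 and 0.915). PCDH1 and PCDH12, described above, had the largest rises of this list in SUN2KO.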

How the data were processed

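The members and gene lists were chosen with earlier results of these data known. The count values are raw reads per gene deposited by the authors, who per the submitters' processing notes used Trim Galore, STAR 2.7.1a on hg19, bedtools 2.24.0 and HTSeq; the annotation, the strand setting and the read length were not given in the sources used here. The authors' 3 deposited comparison tables have no column names. Their log2 fold changes and p-values, deposited by the authors and made with DESeq2 per the submitters' processing notes, were told by a correlation of 0.999 with values from the counts and by recomputing the Benjamini-Hochberg column. The 12 columns of per-library values in them were not used.

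The fit used edgeR 4.0.16 under R 4.3.3 (TMM, filterByExpr, 14016 genes kept, quasi-likelihood test over 8 libraries with 1 term per group, 4 residual degrees of freedom, two-sided, Benjamini-Hochberg adjusted p under 0.05). The fit was tested on simulated data in which the changed genes averaged 10 or more counts per library. Most members lie below that level, so the simulation does not cover them. Ratios of summed counts carry exact (Clopper-Pearson) 95% intervals for counting error. Depth was 16570099 to 18814795 counts per library. Members with 40 or more counts were named, as were those with 10 or more in 1 library or at 0 in 1 group against 10 or more in another, and up to 4 called genes of each list. Alternatives were no filter, a filter of 40 counts, median-ratio factors, scaling by library size, DESeq2 1.42.0, a replicate block, the groups compared alone, and leaving out each library.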

Additional observations from a re-analysis of the deposited data

Results flagged for a closer look

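Among the clustered genes, no difference between the responses of 2 lines to their alteration passed the test. Outside the clusters, 3 protocadherins had log2 fold changes against WT that differed between lines by edgeR's quasi-likelihood test of the difference itself. For PCDH1 the Kashlid change was below that of SUN2KO by -1.87 ± 0.26 (SE, adjusted p = 2.48e-05) and the LBD change by -0.91 ± 0.23 (adjusted p = 0.0117). The LBD value lost its call in DESeq2 (0.0892) and without LBD replicate 1 (0.0807), LBD replicate 2 (0.0716) or SUN2KO replicate 1 (0.185). For PCDH7 the decrease against WT was smaller than in SUN2KO by 0.70 ± 0.08 in Kashlid (adjusted p = 9.11e-07) and by 0.70 ± 0.08 in LBD (adjusted p = 1.08e-06). For PCDH9 the Kashlid change was below that of SUN2KO by -0.80 ± 0.15 (adjusted p = 0.000458) and the LBD change by -0.42 ± 0.14 (adjusted p = 0.0499). This last value sits at the threshold. It kept its call with the replicate block (0.0464) and with the groups compared alone (0.0496), and lost it with median-ratio factors (0.0539), scaling by library size (0.0695), no filter (0.0558), the filter of 40 counts (0.054), DESeq2 (0.243) and in all 4 fits without a library (0.0981 to 0.284).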

How the results depend on the processing

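Depth limits these results: 50 of the 55 genes fell under the filter, and 1 CPM was 16.7 to 18.6 counts. In SUN2KO against WT, where 1 gene was called, 3 were called without a filter (PCDHB13, PCDHB16 and PCDHGB3), 2 with the groups compared alone, and 0 to 2 when a library was left out. In LBD against WT, where 2 were called, 3 were called without a filter (PCDHB8 in addition), DESeq2 called 1 and leaving out a library gave 1 to 2. PCDHGA1 in Kashlid reversed to -0.29 without Kashlid replicate 2 and -0.09 without WT replicate 1, and was 0.29 without Kashlid replicate 1. The cause of these shifts was not tested, except that fits with fewer libraries or no filter test other low genes. Of 186 values of single members under all alternatives, 178 kept direction and side of the threshold, 5 lost a call, 1 gained one and 2 reversed; of 669 values of other genes, 634 kept both and 35 lost a call. Libraries with the same replicate number did not deviate together (correlations from -0.007 to 0.084). This cannot show whether they were grown or prepared together, which the labels do not say. With the replicate as a block, 1, 2 and 2 members were called against WT in SUN2KO, Kashlid and LBD, as without it. The calls given in the report for SMC3, RAD21, ESCO2, DNMT3A, LRIF1, FYN, CYFIP2, PTK2, TAF7 and PCDH7 against WT held in every setting run.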
